A study of Homo sapiens with 2 samples.

Results

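The 10 genes described here are ATF4, its relative ATF5, and 8 genes that are transcribed under ATF4 control or make serine: ASNS, PSAT1, PHGDH, PSPH, CHAC1, TRIB3, SESN2 and DDIT4. They were chosen by gene symbol, with earlier results of these data known, from 27685 genes listed with an expression value. The study selected SNPs in histone modification regions near highly expressed genes, with RNA-seq of H2087 cells as the measure of expression. RNA-seq data were deposited for 1 library of H2087 cells and 1 of H596 cells, both untreated cell lines that the labels call lung adenocarcinoma and that were grown alike, in RPMI medium with fetal bovine serum and antibiotics. Each cell line had a single library, so no value below has a replicate, no test between the cell lines was made, and the cell line, the culture and the library cannot be told apart. Expression is given as FPKM, fragments per kilobase of transcript scaled to the number of mapped fragments, with a 95% counting interval, the Wilson interval of the gene's share of all estimated counts, which covers counting error only. In bulk RNA, fewer cells that express a gene and less RNA per cell cannot be told apart.

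ATF4 is the transcription factor of the integrated stress response. When amino acids are short, or when unfolded proteins, heme deficiency or double-stranded RNA activate a kinase of the initiation factor eIF2, most translation slows while ATF4 mRNA is translated more, so the mRNA level of ATF4 does not measure its protein. ATF4 binds, often as a dimer with a C/EBP protein, to composite elements in genes for amino acid synthesis and transport, tRNA charging and stress signalling. Serine synthesis branches from glycolysis: PHGDH oxidises 3-phosphoglycerate, PSAT1 transaminates the product, and PSPH removes the phosphate. Serine then feeds glycine, folate-bound carbon units and cysteine, and several lung cancers rely on making it.

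The estimated counts totalled 46961500 in H2087 and 55387847 in H596, and an FPKM of 1 or more was listed for 12534 and 12608 genes. The labelled tumor type was checked against marker genes. Of 7 tested lung adenocarcinoma and alveolar markers, 6 (85.7%, against 14.2% of all tested genes) were at least 2-fold lower in H596. There, NKX2-1, the lineage factor of the distal lung, was at an FPKM of 0.508 against 110.0 in H2087. Of 7 tested squamous markers, 6 (85.7%, against 18.2%) were at least 2-fold higher in H596, where TP63, the basal cell factor, was at 55.2 against 0.183. The H596 library thus lacked the defining adenocarcinoma marker that H2087 held. All differences below stand beside this difference in markers, and its part in them was not tested. Genes were tested where their FPKM averaged 1 or more, which KRT5 and DSG3, at 0 counts in H2087, reached only through H596. Some listed markers fell below that average. Among them were DSC3, at 7 counts in H596, and SFTPB and SFTPC, at 22 and 0 counts in H2087. Of the stromal and leukocyte markers, COL1A2, CD3E and PTPRC were at 0 counts in both libraries. Others were detected: COL1A1 was at an FPKM of 3.89 in H2087 (1106 counts) and 0.916 in H596 (308 counts). SPARC had 85 counts in H2087 and 0 in H596, and VWF, an endothelial marker, had 25 and 246. DCN, a stromal proteoglycan, was at an FPKM of 9.77 in H596 and at 0 counts in H2087, and CD68, a lysosomal protein that marks macrophages, was at 25.6 in H596 against 128 in H2087.

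All 10 genes were expressed in both libraries. ATF5, CHAC1 and SESN2 were at least 2-fold higher in H596 than in H2087, and PSAT1, PSPH, TRIB3 and DDIT4 were higher by less. ATF4, PHGDH and ASNS were lower in H596, none of them by 2-fold. Differences were taken as log2(FPKM + 1) in H596 minus that in H2087, a scale that understates the change of low genes. By this measure, 3 of the 10 genes (30.0%) were at least 2-fold higher in H596, against 18.2% of the 13047 genes whose FPKM averaged 1 or more (the tested genes), and 0 were at least 2-fold lower, against 14.2%. The share of higher genes rests on 3 genes and lies near that background. The median difference of the 10 genes was 0.69, and that of all tested genes 0.12. Summed, the 10 genes made up 0.165% of all estimated counts in H2087, and the share in H596 was 0.163%.

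The order of levels differed between the cell lines. In H2087 it ran from ATF4 through PHGDH, DDIT4, ASNS, PSAT1, TRIB3, PSPH, SESN2 and CHAC1 to ATF5. In H596 it ran from ATF4 through DDIT4, PSAT1, PHGDH, TRIB3, ASNS, PSPH, CHAC1 and ATF5 to SESN2. No 2 neighbours in either order had overlapping counting intervals. The range was wider in H2087, where the highest of the genes was 144-fold above the lowest, than in H596, where it was 17.0-fold above. With the study's threshold for high expression, an FPKM of 100, ATF4, PHGDH and DDIT4 passed in both libraries and PSAT1 in H596 alone. Over the whole gene table, 704 genes passed it in H2087, and 637 did so in H596.

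**Figure D1:**
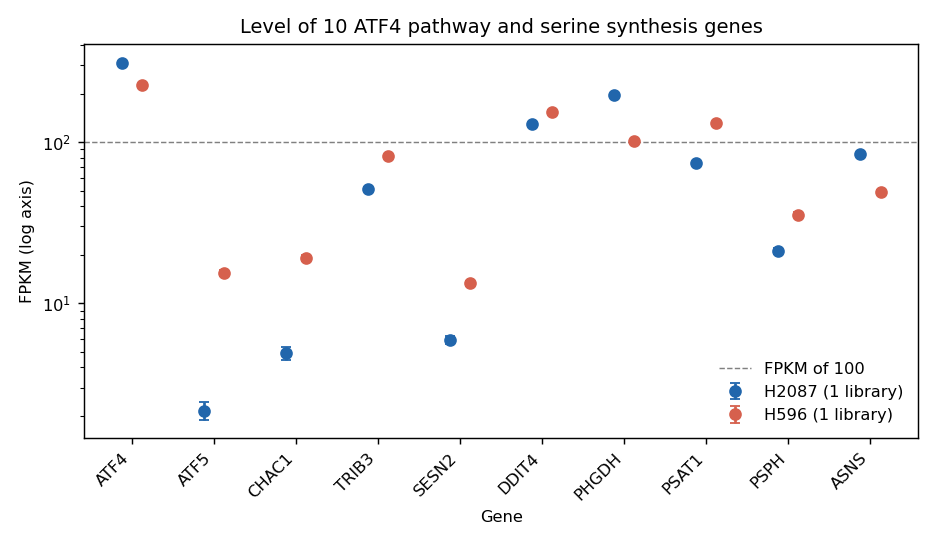
FPKM (log axis) of the 10 genes in H2087 and H596, 1 library each; bars are 95% counting intervals and the dashed line marks an FPKM of 100. ATF5, CHAC1 and SESN2 lie lowest in H2087 and nearer to the others in H596, where ATF5 is at 15.4 against 2.15.

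ATF4 (gene 468, chromosome 22 of hg19, 39916564 to 39918691, plus strand) was the highest of the 10 genes in both libraries. Its FPKM was 310.4 in H2087 (interval, 306 to 315) and 225 in H596 (interval, 222 to 228). The H596 level was 0.725 times the H2087 level (95% exact interval of the ratio from counts, 0.711 to 0.740), and ATF4 ranked 190 among all genes in H2087 and 232 in H596. Both annotated transcripts share the coding sequence and nearly the same start; variant 2 (NM_182810) carried 99.6% of the gene's FPKM in H2087 and 99.2% in H596. ATF4 has processed pseudogenes, and how reads shared with such copies were divided is not stated.

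ATF5 (gene 22809, chromosome 19, 50431959 to 50437193, plus strand), a bZIP factor whose mRNA is also translated under eIF2 control, had the largest difference of the 10 genes. Its FPKM was 2.15 in H2087 (interval, 1.89 to 2.45) and 15.4 in H596 (interval, 14.7 to 16.1), a ratio of 7.15 (interval, 6.22 to 8.25). Only 3.75% of tested genes had a larger difference towards H596. The transcripts did not share the difference evenly. Variant 1 (NM_012068), which begins farthest upstream, was at 1.05 in H2087 and 2.77 in H596, whereas variant 2 (NM_001193646), which begins 441 bases downstream, was at 1.08 and 12.6. Variant 2 thus made up 50.3% of ATF5 in H2087 and 81.8% in H596. The ATF5 locus overlaps that of NUP62, a nuclear pore gene on the opposite strand, which was also higher in H596, at 38.9 against 13.3. The library kit keeps the strand, but whether the abundance estimate used it is not stated, so reads of ATF5 and NUP62 where they overlap may not have been told apart. The part of NUP62 in the ATF5 values was not tested. Relative to ATF4 in the same library, a measure that does not depend on how libraries are scaled, ATF5 stood at 0.00693 in H2087 and 0.0684 in H596.

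The 3 enzymes of serine synthesis did not move together. PHGDH (gene 26227, chromosome 1, 120254419 to 120286849, plus strand), which commits carbon to the pathway, stood at 197 in H2087 (interval, 194 to 199) but 102 in H596 (interval, 100.03 to 103.7). The H596 interval nearly touches the threshold of 100. H2087 was thus 1.93-fold above H596 (interval, 1.89 to 1.97). PSAT1 (gene 29968, chromosome 9, 80911991 to 80945009, plus strand) went the other way, with 73.8 in H2087 (interval, 72.2 to 75.5) and 130.5 in H596 (interval, 129 to 132), 1.77-fold higher in H596 (interval, 1.72 to 1.81). PSPH (gene 5723, chromosome 7, 56078744 to 56119268, minus strand) was at 21.1 in H2087 (interval, 20.3 to 22.0) and 35.5 in H596 (interval, 34.5 to 36.6), 1.68-fold higher in H596 (interval, 1.60 to 1.77). A pseudogene with a near-identical stretch lies near PSPH on the same chromosome, so the PSPH level carries some uncertainty.

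Ratios within a library show this split without any scaling between libraries. PHGDH was 2.66 times PSAT1 in H2087 (interval, 2.59 to 2.73) and 0.781 times PSAT1 in H596 (interval, 0.762 to 0.799), so the order of these enzymes was inverted. In contrast, PSAT1 was 3.49 times PSPH in H2087 (interval, 3.33 to 3.67) and 3.67 times PSPH in H596 (interval, 3.55 to 3.80), and the log2 change of this ratio, 0.07, had an interval from -0.01 to 0.16. PSAT1 and PSPH therefore held nearly one ratio in both cell lines, within counting error, while PHGDH did not. The summed FPKM of the 3 enzymes was 292 in H2087 and 268 in H596. PHGDH made up 67.4% of that sum in H2087 and 38.0% in H596, and PSAT1 25.3% and 48.7%.

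ASNS (gene 440, chromosome 7, 97481429 to 97501854, minus strand), which makes asparagine from aspartate with nitrogen from glutamine, is among the best known ATF4 targets. It was at 84.2 in H2087 (interval, 82.4 to 86.0) and 49.0 in H596 (interval, 47.8 to 50.3), 1.72-fold higher in H2087 (interval, 1.66 to 1.78). ASNS thus differed in the direction of ATF4 and PHGDH. The ratio of PHGDH to ASNS was 2.33 in H2087 and 2.08 in H596, while that of PSAT1 to ASNS was 0.877 and 2.66. ASNSP1, a pseudogene of ASNS, was listed with 0 counts in both libraries.

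Among the stress effectors, CHAC1 (gene 79094, chromosome 15, 41245347 to 41248717, plus strand), an enzyme that breaks down glutathione, differed most. Its FPKM was 4.89 in H2087 (interval, 4.45 to 5.37) from 432 counts and 19.01 in H596 (interval, 18.2 to 19.9) from 1993 counts, a ratio of 3.89 (interval, 3.50 to 4.33). The related enzyme CHAC2 lay the other way, with 9.59 in H2087 and 5.06 in H596. CHAC1 was therefore 0.510 times CHAC2 in H2087 and 3.76 times CHAC2 in H596, an inversion of the pair.

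SESN2 (gene 83667, chromosome 1, 28585963 to 28609002, plus strand), a leucine sensor that restrains MTORC1, was at 5.91 in H2087 (interval, 5.56 to 6.29) and 13.3 in H596 (interval, 12.8 to 13.8), a ratio of 2.24 (interval, 2.09 to 2.42). Its difference on the log2 scale, 1.05, lies just past 2-fold, and 17.1% of tested genes had a larger one; centred on the median of all genes it was 0.93, below 2-fold. The other sestrins were higher in H596 as well, SESN1 at 7.68 against 1.82 and SESN3 at 15.2 against 8.64. SESN3 was thus the highest sestrin in both cell lines, ahead of SESN2 by the ratio of SESN2 to SESN3, which was 0.684 in H2087 and 0.872 in H596.

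TRIB3 (gene 57761, chromosome 20, 361273 to 378203, plus strand) encodes a pseudokinase that is induced by ATF4 and binds it. It was at 51.5 in H2087 (interval, 50.3 to 52.8) and 81.7 in H596 (interval, 80.2 to 83.2), 1.59-fold higher in H596 (interval, 1.54 to 1.64). Of its relatives, TRIB1 was lower in H596, at 14.2 against 35.7, and TRIB2 was at 7.04 against 8.49. TRIB3 was the most abundant tribbles gene in both libraries, 1.44 times TRIB1 in H2087 and 5.77 times TRIB1 in H596.

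DDIT4 (gene 54541, chromosome 10, 74033677 to 74035794, plus strand), an inhibitor of MTORC1 that responds to several stresses, had the smallest difference of the 10 genes. Its FPKM was 129 in H2087 (interval, 127 to 131) and 155 in H596 (interval, 152 to 157), a ratio of 1.20 (interval, 1.17 to 1.23). Of tested genes, 43.7% had a larger difference towards H596. Its relative DDIT4L had 10 counts in H2087 and 5 in H596, far below the 10817 and 15367 counts of DDIT4.

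The promoters of ASNS and CHAC1 are shown because these genes hold the composite element in the searched window and yet differed in opposite directions. RefSeq promoter windows of GRCh38.p14, 250 bases before to 50 after a start, were searched on both strands for the letters TGATGNAA, the core of the C/EBP-ATF response element, in which N is any base. Of the 10 genes, 9 were found in the table (PSPH was not), with 15 windows. A match was present in 1 window of ASNS and 1 of CHAC1, and in 1270 of all 35116 windows (3.62%). The TRIB3 windows have the spacing of its minor variants, which begin 666 to 714 bases downstream of variant 1. Variant 1 carried 99.1% of the TRIB3 FPKM in H2087 and 96.9% in H596. Its start was thus taken as not searched, and the lack of a match in TRIB3 does not cover it. The 250 bases before the start are printed 5′ to 3′ on the strand of the gene, with the match in capitals; in CHAC1 the match is on the opposite strand, so its capitals read as the reverse complement. A match is a run of letters and not a measured binding site.
ASNS, chr7:97872409-97872658, minus strand: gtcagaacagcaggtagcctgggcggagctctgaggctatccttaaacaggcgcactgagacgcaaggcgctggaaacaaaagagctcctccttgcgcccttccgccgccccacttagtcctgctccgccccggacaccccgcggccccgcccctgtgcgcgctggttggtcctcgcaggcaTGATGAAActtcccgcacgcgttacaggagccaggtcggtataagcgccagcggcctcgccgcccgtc
CHAC1, chr15:40953221-40953470, plus strand: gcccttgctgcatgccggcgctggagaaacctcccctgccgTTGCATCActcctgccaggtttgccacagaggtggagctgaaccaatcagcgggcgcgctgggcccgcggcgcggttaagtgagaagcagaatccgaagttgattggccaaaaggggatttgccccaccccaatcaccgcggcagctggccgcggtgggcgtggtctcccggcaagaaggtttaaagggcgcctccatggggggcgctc

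Other genes linked to ATF4 hold the same letters. A match was found in 4 of 17 other ATF4 targets in the table, in 7 of 10 of the aminoacyl-tRNA synthetases linked to ATF4 and in 1 of 15 genes of serine use, glycine and one-carbon metabolism. Matches in expressed genes are printed with 8 bases on either side where both match and flanks lie wholly before a start. They run in the direction in which the element reads TGATGNAA, to show how far the flanks differ. IARS is left out, since its match, from -13, lies before the start but its flank passes it. Sites are given in bases before the start.
ASNS, chr7:97872461-97872484, minus strand, from -68: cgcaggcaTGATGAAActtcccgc
CHAC1, chr15:40953254-40953277, minus strand, from -209: ggcaggagTGATGCAAcggcaggg
ATF3, chr1:212565208-212565231, plus strand, from -191: ggtcaggaTGATGGAAggctgtca
CEBPG, chr19:33374063-33374086, plus strand, from -42: gcggcgtcTGATGCAAcctgccgg
JDP2, chr14:75427998-75428021, plus strand, from -16: gccggggcTGATGCAAcccgtccc
GARS, chr7:30594837-30594860, minus strand, from -33: tcggagcaTGATGAAAtcgccgcg
AARS, chr16:70289678-70289701, plus strand, from -187: aacttggcTGATGCAActgcgaga
MTHFD1L, chr6:150866349-150866372, plus strand, from -129 of 1 of its annotated starts: gccggctcTGATGCAAtcgcgccg

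The genes with printed matches did not share a direction. CHAC1, ATF3, CEBPG and JDP2 were at least 2-fold higher in H596, with differences of 1.77, 1.63, 1.37 and 1.29. MTHFD1L was lower, with a difference of -1.61, and ASNS, AARS and GARS differed by -0.77, -0.56 and 0.08. Over all 272 tested genes with a match, the median difference was 0.08, against 0.11 in the matched tested genes without one, and 20.2% were at least 2-fold higher and 18.8% at least 2-fold lower, against 17.5% and 13.4%.

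The annotated transcripts divided each gene in much the same way in both libraries, ATF5 apart. Of the 10 genes, 4 are listed with 1 transcript, and the other 6 share 21 transcripts. The transcript with the highest FPKM was the same in both libraries for all 10 genes, although for ATF5 in H2087 variants 1 and 2 were nearly equal, at 1.05 and 1.08. PSAT1 variant 1 (NM_058179) carried 94.4% of its gene in H2087 and 94.7% in H596. In CHAC1, variant 1 (NM_024111) carried 93.9% and 98.1%, and in TRIB3, variant 1 (NM_021158) carried 99.1% and 96.9%. ASNS was made up mainly of variant 2 (NM_001673), with 83.5% and 80.9%, and variant 3 (NM_183356), with 11.7% and 13.3%. Shares of transcripts that have most exons in common are estimates, and counting intervals do not cover their error.

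**Figure D2:**
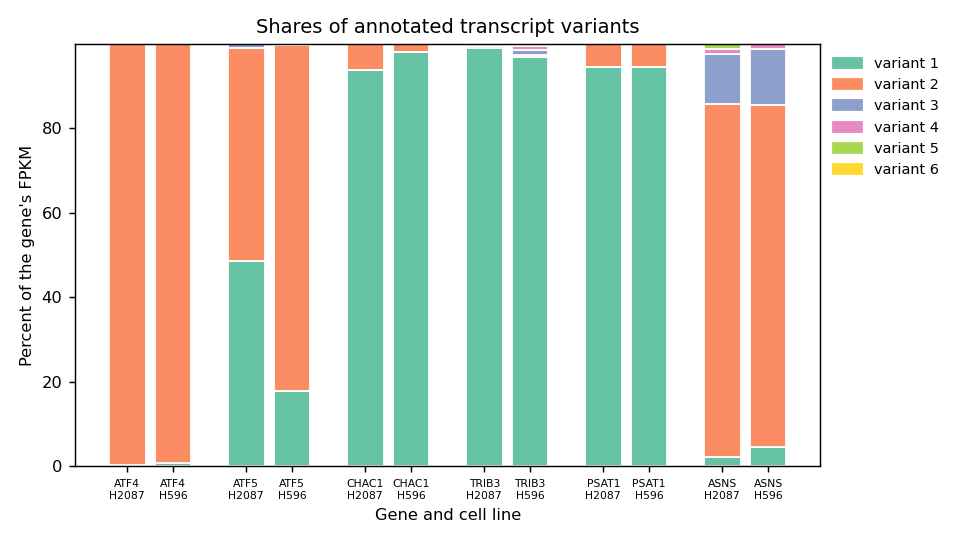
Percent of each gene's FPKM in its annotated transcript variants, for the 6 genes listed with several, in H2087 and H596 (1 library each). The bars of a gene look alike in both cell lines except for ATF5, where variant 2 is 50.3% in H2087 and 81.8% in H596.

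The sign of the difference held for each of the 10 genes in 8 other ways of scaling, filtering or summarising the values, except that ATF5 and SESN2 were not tested at a mean FPKM of 10 or more. Filtering leaves a gene's difference as it is, and a smaller pseudocount cannot reverse it. Only the scalings and the use of single transcripts could have changed a sign. Scaling moved the median of all tested genes from 0.12 to 0.01 with TMM and to 0.30 with TPM. Not every gene moved with the median: ATF5, at 2.38 as reported, was at 2.44 with TMM and 2.67 with DESeq2 size factors. Both settings add 1 to scaled counts and not to FPKM, so the added 1 weighs less on ATF5. With a pseudocount of 0.1 in place of 1, and no other change, ATF5 was at 2.78. With TMM, PHGDH reached -1.07 and passed 2-fold in the lower direction; with DESeq2 size factors and with centring it did so too, at -1.06 and -1.06. DDIT4 ranged from 0.13 to 0.44 over the alternatives, so that its size, though not its sign, depended on scaling.

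**Figure D3:**
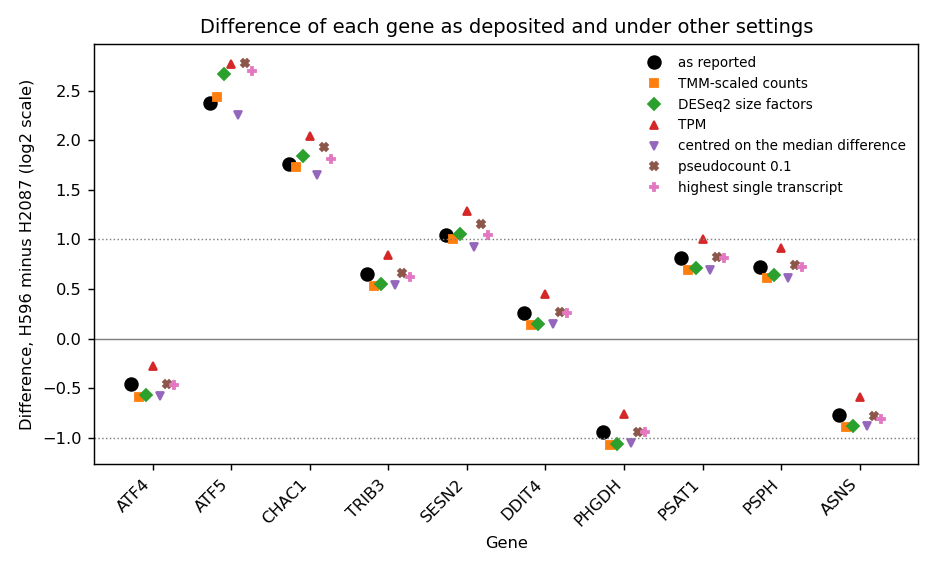
Difference of each gene, H596 minus H2087, on the log2 scale, as reported (black) and under 6 other settings; dotted lines mark 2-fold. ATF5, CHAC1 and SESN2 lie at or above the upper line except for centred SESN2 (0.93), and PHGDH crosses the lower line with TMM, DESeq2 size factors and centring.

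The genes upstream of ATF4 were measured next. Of 16 genes for eIF2 kinases and eIF2 control, 2 (12.5%) were at least 2-fold higher in H596, against 18.2% of all tested genes. Another 2 (12.5%) were at least 2-fold lower, against 14.2%. Among the kinases, EIF2AK1, the heme-regulated kinase, was at 134 in H596 against 63.9 in H2087, a difference of 1.06. EIF2AK3 (PERK), which senses unfolded protein, was at 17.0 against 8.70, and EIF2AK4 (GCN2), which senses uncharged tRNA, at 21.7 against 12.9. EIF2AK2 (PKR), which senses double-stranded RNA, was at 21.7 and 20.4. IMPACT, an inhibitor of GCN2 activation, was higher in H596 (18.9 against 5.48), and GCN1, its activator, was lower (19.9 against 43.7), as was EIF2B1, a subunit of the exchange factor of eIF2 (20.4 against 46.4). PPP1R15A, which returns eIF2 to its unphosphorylated form, was at 41.9 against 25.3. The median of this list was 0.02, and it was below 0 with TMM, DESeq2 size factors and centring. The calls moved too: each of these 3 settings gave 1 gene higher and 3 lower, with EIF2AK1 no longer past 2-fold, and TPM gave 3 higher and 0 lower.

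Other ATF4 targets went both ways. Of 22 tested, 5 (22.7%) were at least 2-fold higher in H596 and 10 (45.5%) at least 2-fold lower, with a median difference of -0.52. Over all tested genes these shares were 18.2% and 14.2%, so the share of higher genes lies near that background. The higher ones included transcription regulators: NUPR1, a stress-induced chromatin protein, at 165 against 1.77, ATF3 at 15.1 against 4.18, CEBPB at 39.5 against 14.4, and CEBPG, a dimer partner of ATF4, at 26.0 against 9.43. The lower ones included enzymes: ALDH1L2, the mitochondrial formyltetrahydrofolate dehydrogenase, at 0.0187 from 8 counts against 15.2 from 5477, CTH, which makes cysteine, at 2.35 against 14.9, SHMT2 at 68.4 against 200.01, and MTHFD2 at 66.1 against 182. SQSTM1, an autophagy receptor, was at 129 against 559.8. DDIT3 (CHOP), the factor of the terminal stress response, was at 39.8 in H596 and 44.04 in H2087, a difference of -0.14.

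Downstream of serine, the genes of serine use, glycine and one-carbon metabolism were mostly lower in H596. Of 17 tested, 8 (47.1%) were at least 2-fold lower, against 14.2% of all tested genes, and 1 (5.88%) was higher, against 18.2%. The median difference was -0.90 and stayed below -0.7 under each scaling. Of the lower genes, ALDH1L2, SHMT2 and MTHFD2 are also on the list of other ATF4 targets above. Besides ALDH1L2, the largest differences were those of GCSH, a protein of the glycine cleavage system, at 9.52 against 46.1, and SFXN3, a mitochondrial serine carrier, at 5.48 against 24.9. SRR, serine racemase, was higher, at 6.08 against 1.23. The mitochondrial enzyme SHMT2 was 4.39 times its cytosolic counterpart SHMT1 in H2087 (interval, 4.27 to 4.53) and 1.10 times SHMT1 in H596 (interval, 1.07 to 1.14), as SHMT1 itself was at 61.9 in H596 and 45.5 in H2087. PSAT1 was 0.369 times SHMT2 in H2087 and 1.91 times SHMT2 in H596.

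Of 9 genes that lead from serine to cysteine and glutathione, the substrate of CHAC1, or that turn glutathione over, 4 (44.4%) were at least 2-fold lower in H596, against 14.2% of all tested genes, and 0 were 2-fold higher. The median was -0.81, and 3 of the 9 had a difference above 0. CBS and CTH, both among the lower genes, are also on the list of other ATF4 targets. The catalytic and modifier subunits of glutamate-cysteine ligase were at 21.0 against 179 (GCLC) and 4.63 against 32.3 (GCLM). Around ASNS, 4 of 7 genes of aspartate and asparagine metabolism (57.1%, against 14.2%) were at least 2-fold lower. In the same list, 1 (14.3%, against 18.2% of all tested genes) was higher. ASRGL1, an asparaginase, was at 0.320 against 12.0 and ASL, which releases arginine, at 8.62 against 44.4, while ASS1, which joins citrulline and aspartate, was at 383 against 50.9.

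Several aminoacyl-tRNA synthetases respond to ATF4. Of 12 linked to ATF4, 1 (8.33%) was at least 2-fold higher in H596 (TARS, 304 against 151), against 18.2% of all tested genes. Another 2 (16.7%) were lower (SARS, 89.1 against 209, and LARS, 31.4 against 73.0), against 14.2%, and the median was -0.19. TARS, with a difference of 1.001, was below 2-fold with TMM, DESeq2 size factors and centring. Of 8 others, 3 (37.5%, against 14.2% of all tested genes) were lower (FARSB, HARS and KARS) and 0 higher, against 18.2%. Their median was -0.79. With TMM, DESeq2 size factors and centring, 4 of these 8 were lower, and with TPM 2 were. Amino acid transporters linked to ATF4 had a median of 0.80. Of 8 tested, 2 (25%, against 18.2% of all tested genes) were at least 2-fold higher. They were SLC6A9, a glycine carrier, at 38.8 against 5.77 and SLC7A5, which carries leucine, at 434 against 177. With TPM, 4 were higher, and the share over all tested genes was 24.6%. In the same list, 1 (12.5%, against 14.2%) was at least 2-fold lower, SLC7A11, the cystine carrier, at 3.46 against 27.6. Another 2, SLC7A1 and SLC38A2, had differences of -0.17 and -0.28.

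The other arms of the unfolded protein response served for comparison. Of 18 genes linked to ATF6 and XBP1, 1 (5.56%, against 18.2%) was at least 2-fold higher (ERN1, 6.96 against 2.61) and 0 were lower, against 14.2%. The median was 0.08, which was below 0 with TMM, DESeq2 size factors and centring (-0.05, -0.03 and -0.04). HSPA5 (BiP), the main chaperone of the endoplasmic reticulum, was at 249.6 in H596 (interval, 248 to 252) and 152 in H2087 (interval, 150 to 153). Among 22 bZIP genes listed as partners or relatives, 6 were at least 2-fold higher (27.3%, against 18.2% of all tested genes) and 6 lower (27.3%, against 14.2%). ATF3, CEBPB, CEBPG and DDIT3 are also on the list of other ATF4 targets. With TMM, DESeq2 size factors and centring, 4 were higher and 7 lower. CEBPA was at 9.50 against 0.349, whereas CEBPD was at 17.0 against 137, FOSL1 at 2.09 against 67.6 and BATF3 at 0.0898 against 4.59.

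**Figure D4:**
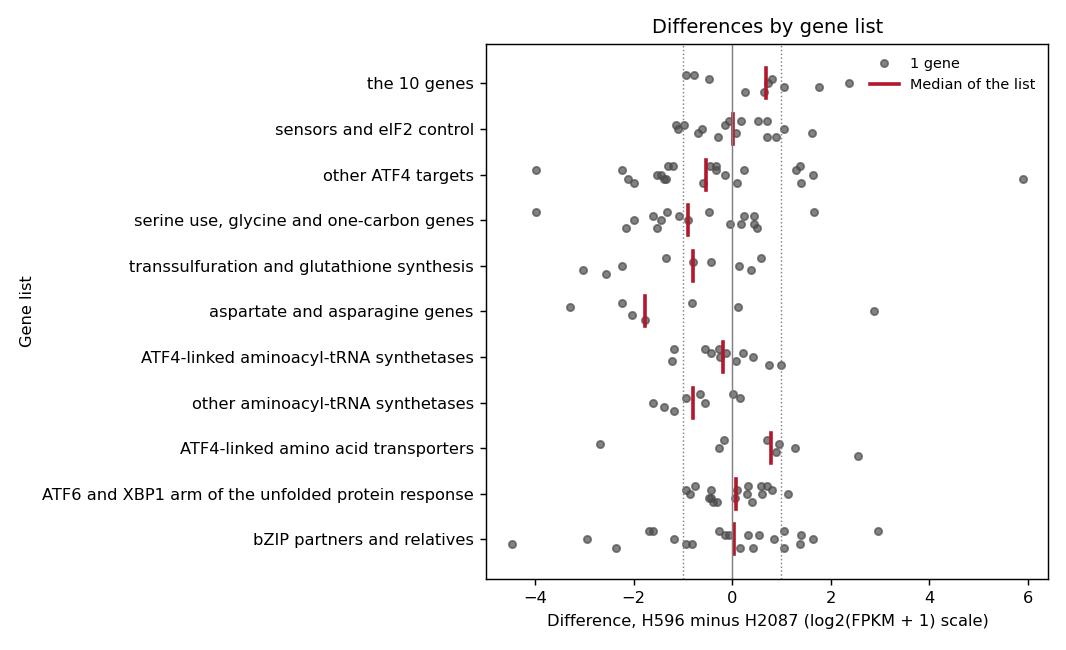
Difference, H596 minus H2087, on the log2(FPKM + 1) scale for every tested gene of 11 lists; each dot is 1 gene, the red bar is the list's median and dotted lines mark 2-fold. The median of the 10 genes is 0.69 and that of the amino acid transporters 0.80, whereas the serine use and one-carbon list is at -0.90 and the aspartate and asparagine list at -1.76. Some genes are on more than 1 list.

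The 10 genes were finally set beside their chromosomal neighbours, the 5 nearest tested genes on each side. For ATF5, ASNS, PSAT1, PHGDH and CHAC1, at least 9 of the 10 neighbours differed in the same direction as the gene, and the median of the neighbours was at least 1 in size. Over 12814 tested genes with 10 neighbours, 13.4% had at least 9 on their own side, and 8.50% had such a median. Around CHAC1, all 10 neighbours were higher in H596, with a median of 1.23, and RHOV (60.5 against 2.08) and SPINT1 (213 against 54.1) were among them. Around PHGDH, 9 of 10 were lower, with a median of -1.08, as around ASNS, with a median of -1.23. PSAT1 had 9 higher neighbours with a median of 1.19, and ATF5 had 9 with a median of 1.11. The neighbours of PSPH had a median of 0.16, with 6 of 10 on its side; EGFR, the farthest of the 5 on one side, was at 265 against 37.8. For DDIT4, 2 of 10 neighbours were on its side and their median was -0.75. The part of position in these differences was not tested, and no measure of DNA copy number was used here. The neighbours named were chosen after their values were seen.

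**Figure D5:**
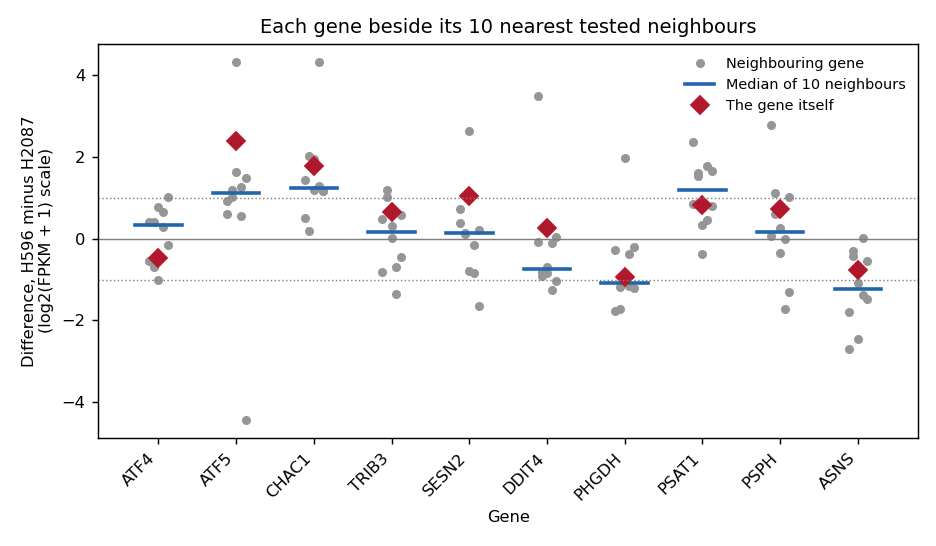
Difference, H596 minus H2087, on the log2(FPKM + 1) scale of each gene (red diamond) and of its 10 nearest tested neighbours (grey dots, with the median as a blue bar); dotted lines mark 2-fold. The medians of the neighbours lie on the side of the gene and past 1 in size for ATF5, CHAC1, PHGDH, PSAT1 and ASNS, and on the other side for ATF4 and DDIT4.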

How the data were processed

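RNA-seq data of 2 libraries were used, 1 each of untreated H2087 and H596 cells. The authors prepared stranded mRNA libraries and sequenced them on an Illumina HiSeq4000. The submitters' processing notes name bcl2fastq 1.8.4, Trimmomatic, HISAT2 2.0.5 and StringTie 1.3.3b, with hg19. The authors deposited an estimated count and an FPKM value for each gene and each RefSeq transcript. The deposited estimated counts are whole numbers proportional to FPKM times length within a library, and were taken as derived from coverage. The deposited FPKM values are relative to transcript length and library size. Whether reads were paired, whether the strand was used and how multi-mapping reads were treated is not given in the sources used here. Counting of both mates of a pair would make the intervals too narrow.

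From these tables, log2(FPKM + 1) was compared between the libraries for the 13047 genes whose FPKM averaged 1 or more, keeping the higher of the rows where a symbol had several (2 symbols). A difference of at least 1 was counted as 2-fold. With 1 library per cell line, no test was made. Levels have 95% Wilson intervals, and ratios of FPKM have 95% exact (Clopper-Pearson) intervals from the counts; intervals of changes in a ratio use a normal approximation of the log ratio (scipy 1.17.1). Scaling by TMM (edgeR 4.0.16) or DESeq2 (1.42.0) factors, TPM, centring, the pseudocount, the filter, the threshold and the use of transcripts were alternatives. Gene positions are hg19 as deposited, and strands are from GENCODE mapped to GRCh37. Promoter sequences are RefSeq windows of GRCh38.p14, matched by symbol or gene ID; no coordinates were converted between builds. The 10 genes and all lists were chosen with earlier results of these data known. From each list, up to 3 genes past 2-fold with the largest difference in each direction were named, in addition to paralogs, eIF2 kinases and a few regulators and enzymes. GARS, AARS, MTHFD1L, JDP2, NUP62, SLC7A1, SLC38A2, COL1A2, CD3E, PTPRC, TP63 and the neighbours are outside that rule and were named after their values were seen. The same holds for SPARC, VWF, CBS, IARS, DSG3, DSC3, SFTPB and SFTPC. No column of sample values was left unassigned. Some genes and lists are not reported here. The 2-fold calls and the Wilson intervals were tested on simulated counts with counting error only, in genes at a mean FPKM of 10 or more. The planted changes were 4-fold, so calls near 2-fold and low genes were not covered. Python 3.11.15, numpy 2.4.6, pandas 2.3.3 and R 4.3.3 were used.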

Additional observations from a re-analysis of the deposited data

How the results depend on the processing

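The counts of genes past 2-fold, the median difference of the 10 genes and each gene's own difference were recomputed under 8 alternatives, and the counts also under 2 other thresholds. All 78 alternative values of single genes had the sign reported, and 37 moved by more than the counting interval. The changes of filter repeat the reported difference, and a smaller pseudocount cannot change a sign. For genes with 1 transcript, the use of single transcripts repeats the difference too. Part of this agreement was thus fixed in advance. With TMM, DESeq2 size factors and centring, 1 of the 10 genes, PHGDH, was at least 2-fold lower instead of 0, and the median difference was 0.57, 0.59 and 0.57 instead of 0.69; with TPM it was 0.88. With a mean FPKM of at least 10, ATF5 and SESN2 were not tested, 1 gene (CHAC1) was higher, the median was 0.46, and 1986 instead of 4226 of all genes differed by 2-fold, since fewer were tested. A 1.5-fold threshold gave 6 genes higher, 2 lower and 7123 over all genes, and a 4-fold threshold gave 1 higher (ATF5) and 1322 over all genes. With centring, 2 genes were higher, since SESN2 was at 0.93. TMM and DESeq2 values add 1 to scaled counts and not to FPKM, which matters most for low genes. Beyond that, the cause of the shifts between scalings was not tested. No paired analysis was possible because H2087 and H596 are represented by 1 library apiece, which also means that none could be left out. Depth limits few of these values: the lowest count among the 10 genes was 225, for ATF5 in H2087.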

Other observations

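Several of the 10 genes also respond to pathways other than ATF4, and the genes of those pathways had these values. Of 10 NRF2 targets, 10 were at least 2-fold lower in H596 (against 14.2% of all tested genes), with a median difference of -2.62; NQO1, a quinone reductase, was at an FPKM of 8.24 in H596 and 326 in H2087, and TXNRD1, a thioredoxin reductase, at 33.2 and 499.7. GCLC, GCLM and SLC7A11 are also on the lists of glutathione synthesis and amino acid transport. Hypoxia targets, among which DDIT4 is often counted, gave 2 of 7 higher (28.6%, against 18.2%) and 3 lower (42.9%, against 14.2%). ADM, a vasodilator peptide gene, was at 68.4 against 0.772 and BNIP3, a mitophagy receptor, at 6.34 against 86.8.

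In the MTORC1 pathway, on which SESN2 and DDIT4 act, 2 of 18 genes were higher in H596 (11.1%, against 18.2% of all tested genes). Of the same genes, 1 was lower (5.56%, against 14.2%), and the median was 0.20. The GTPase genes RRAGA and RRAGC, which carry the amino acid signal, were at 34.8 against 13.5 and 15.0 against 6.50. EIF4EBP1, a translation repressor that is both an MTORC1 substrate and an ATF4 target, was at 71.6 in H596 and 189 in H2087. RRAGC had a difference of 1.10; with centring, 1 gene of the list was higher and 2 were lower, and RRAGC was below 2-fold.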
